A study of Homo sapiens with 6 samples.

Results

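The BCL2 family genes described here are 10 rows of the deposited count matrix, of 58302 gene entries in all and 15063 that were tested. They were chosen by name as pro- and anti-apoptotic BCL2 family genes, and with the siKMT2C over siNC counts in view, in which BMF was known to be much lower. Every fold change between those groups is therefore given for the 10 genes as a description with its standard error and no p-value. All 10 passed the filter on low counts. They are the BH3-only genes BMF, BCL2L11, BID, BAD, BBC3 and PMAIP1, the effector genes BAX and BAK1, and the survival genes BCL2L1 and MCL1.

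The libraries were made from Ker-CT, a human skin keratinocyte line immortalised with telomerase and CDK4. In 3 libraries (siKMT2C) the cells had received small interfering RNA against KMT2C, a histone H3 lysine 4 methyltransferase also called MLL3, and in 3 others (siNC) they had received negative-control small interfering RNA. Both groups were exposed for 24 h to M5, a mixture of oncostatin M, TNF-α, IL-1α, IL-22 and IL-17A at 10 ng/ml each, used as a culture model of psoriatic skin. No unstimulated sample was analysed here, and the sources used here give no siRNA sequence.

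The BCL2 family controls the permeability of the mitochondrial outer membrane. BAX and BAK1 encode the proteins that form pores in it and let cytochrome c out, the survival proteins BCL-XL and MCL1 hold them in check, and BH3-only proteins bind the survival proteins or activate the effectors through a short helix, the BH3 motif. In the epidermis this balance bears on the death of detached or irradiated keratinocytes, and BMF is known for its part in the death of epithelial cells that lose contact with matrix.

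The motif that all 10 genes share is given as its coding stretch, since it is the feature by which BH3-only proteins meet their partners. A script searched the GENCODE 29 protein-coding transcript of each gene for a leucine, any 3 residues, a glycine, alanine or serine, and an aspartate. Each line gives the codons of that match with 2 flanking codons on either side, 5′ to 3′ on the coding strand, and capitals mark the codons of the leucine, the small residue and the aspartate.
BMF: cgaaagCTTcagtgcattGCAGACcagttc
BCL2L11: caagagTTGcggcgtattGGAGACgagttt
BID: aggcacCTCgcccaggtcGGGGACagcatg
BAD: cgcgagCTCcggaggatgAGTGACgagttt
BBC3: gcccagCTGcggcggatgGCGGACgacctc
PMAIP1: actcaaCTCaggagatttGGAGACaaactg
BAX: gagtgtCTCaagcgcatcGGGGACgaactg
BAK1: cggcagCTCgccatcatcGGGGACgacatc
BCL2L1: caagcgCTGagggaggcaGGCGACgagttt
MCL1: gagaccTTAcgacgggttGGGGATggcgtg
In BMF, on chromosome 15 (GRCh38 chr15:40087890-40108892, minus strand), the match covers residues 137 to 142 of a 184-residue protein. In PMAIP1, on chromosome 18 (chr18:59899948-59904306, plus strand), it covers residues 29 to 34 of 54. BID held a second match at residues 71 to 76, and the stretch printed is that of residues 136 to 141 of the 241-residue isoform. The search pattern itself fixes what the capitals share between the genes.

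The windows at the annotated starts of BMF are shown because BMF is the one of the 10 genes whose level differs most between the groups. They come from RefSeq (GRCh38.p14), run from 250 bases before to 50 after each start on the minus strand, and capitals mark every CG dinucleotide. The first is chr15:40108830-40109129 and the second chr15:40106917-40107216.
BMF start 1: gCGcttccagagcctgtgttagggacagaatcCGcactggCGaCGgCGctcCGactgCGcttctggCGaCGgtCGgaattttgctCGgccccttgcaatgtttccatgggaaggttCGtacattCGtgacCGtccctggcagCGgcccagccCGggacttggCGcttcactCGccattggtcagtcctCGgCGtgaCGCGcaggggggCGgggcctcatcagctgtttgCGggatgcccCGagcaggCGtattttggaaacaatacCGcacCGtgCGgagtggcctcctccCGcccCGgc
BMF start 2: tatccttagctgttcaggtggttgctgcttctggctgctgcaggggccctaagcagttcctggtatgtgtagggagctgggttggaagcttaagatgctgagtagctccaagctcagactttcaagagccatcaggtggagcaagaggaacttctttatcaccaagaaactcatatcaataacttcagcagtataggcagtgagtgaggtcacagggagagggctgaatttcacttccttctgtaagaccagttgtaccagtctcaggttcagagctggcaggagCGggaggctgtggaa
The first window holds 31 CG dinucleotides and is 65% G or C, and 79.35% of the 35116 RefSeq windows hold fewer CG. The second holds 1 CG and is 50.33% G or C, and 3.961% of windows hold fewer. Counts per gene do not tell which start gave the reads. GTAAACA, a core to which forkhead factors such as FOXO3 bind, was searched on both strands of the 16 windows found for 9 of the 10 genes. It was in 1 window, that of BCL2L11 (chr2:111120664-111120963, plus strand), and in 3.423% of all windows.

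Total counts ran from 14409277 to 17539519 per library. KMT2C, the targeted gene, was lower in siKMT2C, at 32.0, 30.8 and 27.3 CPM (counts scaled to library depth, with TMM-scaled library sizes), against 87.9, 82.0 and 72.6 CPM in siNC (log2 fold change −1.43, SE 0.14, edgeR adjusted p = 0.00786). That call was lost without siKMT2C replicate 1 or 2 or siNC replicate 2, at an edgeR adjusted p of 0.0634, 0.0507 and 0.0593. Of the 15063 genes tested, 226 (1.50%) were called at an edgeR adjusted p under 0.05, 104 (0.690%) higher and 122 (0.810%) lower in siKMT2C. Leaving out any one library other than siNC replicate 3 left 16 to 52 calls, and leaving out siNC replicate 3 gave 620. In 24.1% of all genes tested the CPM ranges of the groups did not overlap. The keratinocyte markers were all tested, 12 of 12, and summed to 17906 to 24641 CPM in siKMT2C and 18466 to 27769 CPM in siNC. Of these, 9 had a negative and 3 a positive log2 fold change, the median was −0.35, and the groups did not overlap in 3. Replicate 3 stood apart from replicates 1 and 2 in both groups: it was the highest or the lowest library in both for 52.47% of the genes tested. Of the members it was the highest in both groups in 6 and the lowest in both in 1.

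The BH3-only genes included the one large difference of the family. BMF, whose protein is held on the cytoskeleton by dynein light chain and is released under stress or loss of anchorage, had 0.550, 0.707 and 0.737 CPM in siKMT2C, against 4.63, 4.29 and 5.63 CPM in siNC. The groups did not overlap, and the lowest siNC library had 5.82 times the CPM of the highest siKMT2C library. In siKMT2C, BMF averaged 0.665 ± 0.100 CPM, and in siNC it averaged 4.85 ± 0.696 CPM (SD, n = 3 each), which gave a log2 fold change of −2.86 (SE 0.26) and a level 13.8% of that in siNC. The level rested on few reads, 9, 11 and 12 counts in the siKMT2C libraries and 81, 62 and 100 counts in the siNC libraries. In such bulk RNA, fewer cells that transcribe a gene and less RNA per cell cannot be told apart.

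BCL2L11 encodes BIM, which binds all survival proteins and activates BAX and BAK. It had 6.42, 9.77 and 11.1 CPM in siKMT2C, against 5.15, 11.8 and 4.11 CPM in siNC. The groups overlapped, with the highest library of all in siNC, and the log2 fold change was 0.38 (SE 0.40). With single libraries left out it lay between 0.11, without siNC replicate 3, and 0.97, without siNC replicate 2, and it was −0.06 without both replicate 3 libraries.

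BID encodes the protein that caspase-8 cleaves to carry a death receptor signal to mitochondria. It had 27.0, 29.3 and 26.8 CPM in siKMT2C, against 24.0, 21.0 and 25.2 CPM in siNC. The groups did not overlap but lay close together, with a log2 fold change of 0.24 (SE 0.14). BAD encodes a BH3-only protein that binds BCL-XL and is inactivated by phosphorylation. Its values were 33.5, 18.6 and 34.6 CPM in siKMT2C, against 22.1, 44.9 and 46.7 CPM in siNC. One library of each group was low, replicate 2 in siKMT2C and replicate 1 in siNC, and the groups overlapped (log2 fold change −0.39, SE 0.33). It was −0.15 and −0.25 without replicate 2 of siKMT2C or of siNC, −0.67 without siNC replicate 1 and −0.22 without siNC replicate 3.

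BBC3 encodes PUMA and PMAIP1 encodes NOXA, both classical p53 targets, the second a partner mainly of MCL1. BBC3 had 7.83, 6.10 and 10.8 CPM in siKMT2C, against 3.72, 6.02 and 7.38 CPM in siNC. The groups overlapped because siNC replicate 3 lay above siKMT2C replicate 2 (log2 fold change 0.53, SE 0.31; 0.29 without siKMT2C replicate 3 and 0.30 without siNC replicate 1). PMAIP1 had 39.8, 39.4 and 23.6 CPM in siKMT2C, against 52.8, 42.4 and 24.8 CPM in siNC. The third replicate was the lowest in each group and the groups overlapped (log2 fold change −0.22, SE 0.30). Its fold change was 0.03 without siNC replicate 1, −0.48 without siNC replicate 3, and −0.34, −0.33 and −0.01 when siKMT2C replicates 1, 2 and 3 were left out in turn.

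**Figure D1:**
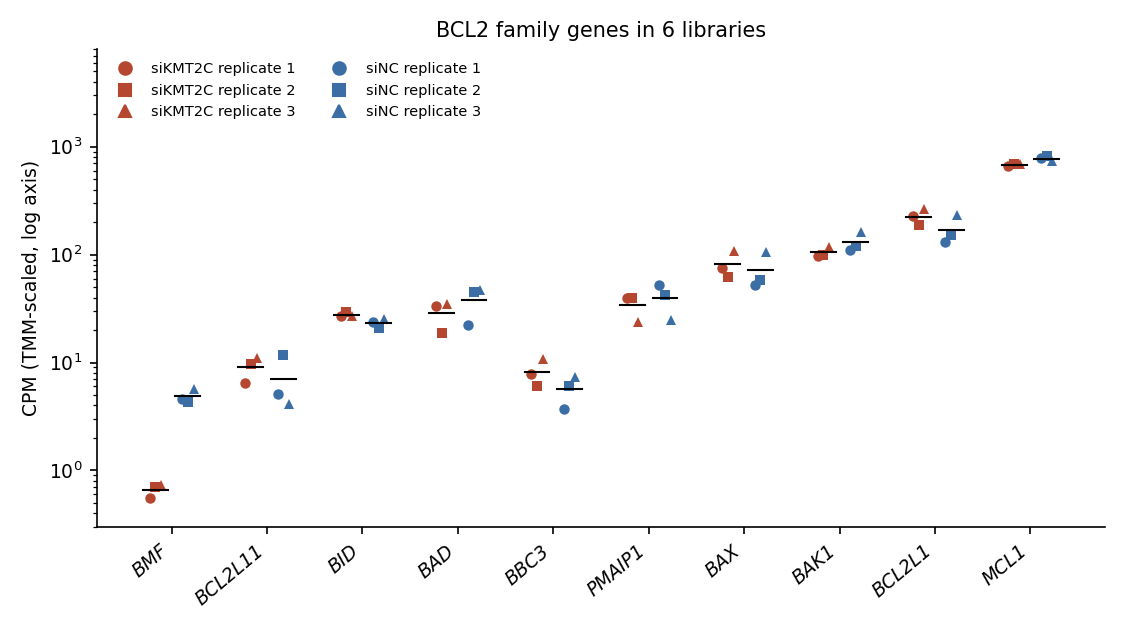
CPM (log axis) of the 10 BCL2 family genes in each library, siKMT2C in red to the left of siNC in blue, with marker shape for the replicate number and a black line for the group mean. BMF is the gene whose groups lie far apart, with siKMT2C at 0.550 to 0.737 CPM and siNC at 4.29 to 5.63 CPM; in 7 of the other genes the groups overlap.

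Neither effector gene separated the groups. BAX, whose protein moves from the cytosol to mitochondria when activated, had 74.4, 62.6 and 107.8 CPM in siKMT2C, against 52.8, 57.7 and 106.5 CPM in siNC. Replicate 3 was far above the others in both groups, and the groups overlapped (log2 fold change 0.17, SE 0.31). Its fold change was −0.08 without siKMT2C replicate 3, −0.01 without siNC replicate 1 and 0.56 without siNC replicate 3, and it was 0.34 and 0.04 without replicate 2 of siKMT2C or of siNC. BAK1, whose protein sits in the outer membrane, had 96.3, 99.96 and 118.0 CPM in siKMT2C, against 110.7, 119.1 and 161.5 CPM in siNC. The siKMT2C libraries were mostly the lower ones, but replicate 3 of siKMT2C exceeded replicate 1 of siNC (log2 fold change −0.32, SE 0.17; −0.14 without siNC replicate 3).

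The survival genes had opposite signs. BCL2L1, which gives BCL-XL and, by another splice form that counts per gene do not separate, the pro-apoptotic BCL-XS, had 225.8, 186.9 and 263.6 CPM in siKMT2C, against 129.6, 150.4 and 231.1 CPM in siNC. Within replicates 1 and 2 all siKMT2C values lay above all siNC values, while siNC replicate 3 lay inside the siKMT2C range (log2 fold change 0.40, SE 0.23; 0.68 without siNC replicate 3 and 0.24 without siNC replicate 1). MCL1, which encodes a short-lived survival protein, had 659.0, 691.5 and 685.6 CPM in siKMT2C, against 784.8, 817.2 and 729.9 CPM in siNC. The groups did not overlap and the distance was small, with a log2 fold change of −0.20 (SE 0.11).

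Across the 10 genes, 5 fold changes were positive and 5 negative, with a median log2 fold change of −0.01 beside −0.00 over all genes tested. BMF was the single member called in the main edgeR fit, 1 of 10, beside the 1.50% of all genes above. Since the contrast chose the members, nothing is read from that count. The groups did not overlap in 3 of 10 members, BMF, BID and MCL1, beside 24.1% of all genes. Leaving out libraries kept BMF between −2.94 and −2.74.

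**Figure D2:**
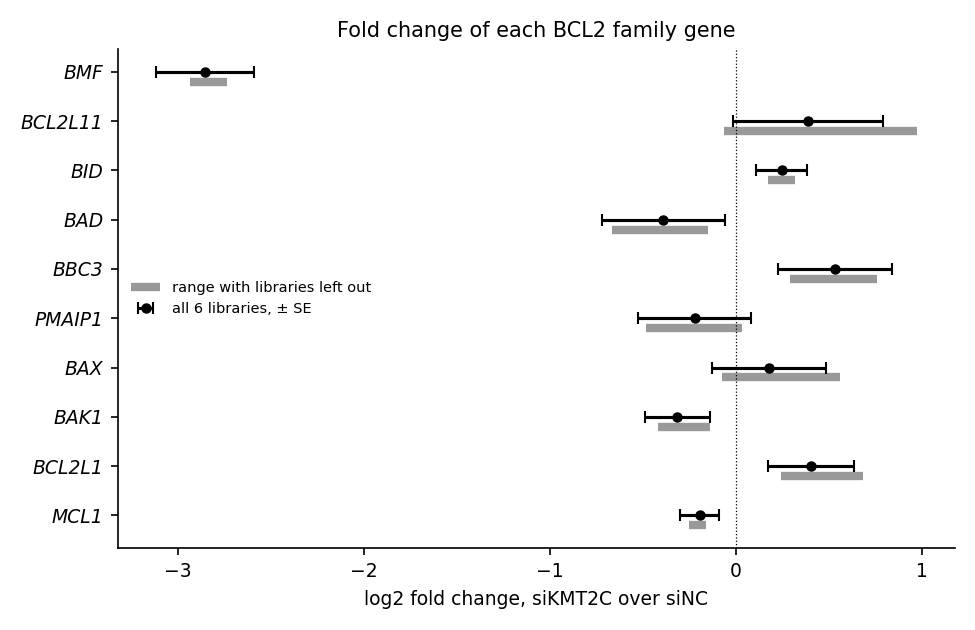
Log2 fold change of each gene, siKMT2C over siNC, with all 6 libraries (black point, bar ± SE) and the range over fits with libraries left out (grey bar). BMF at −2.86 is the only one far from 0, and the grey bars of BCL2L11, PMAIP1 and BAX cross 0.

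Compared per length, MCL1 was the most abundant of the 10 genes in both groups, and BMF had the lowest mean. Deposited FPKM (fragments per kilobase of transcript, scaled to depth) averaged 70.5 ± 1.35 for MCL1 in siKMT2C and 82.3 ± 4.29 in siNC (SD, n = 3 each). BCL2L1 averaged 31.6 ± 5.59 FPKM in siKMT2C and 24.3 ± 7.76 FPKM in siNC. BAK1 averaged 26.8 ± 3.05 FPKM in siKMT2C and 34.1 ± 7.24 FPKM in siNC. The ranges of BCL2L1 and BAK1 overlapped in both groups, so their order is not settled. BAX followed at 13.8 ± 4.02 FPKM in siKMT2C and 12.4 ± 5.16 FPKM in siNC. PMAIP1 averaged 8.43 ± 2.26 FPKM in siKMT2C and 10.0 ± 3.53 FPKM in siNC, and BAD averaged 8.14 ± 2.57 FPKM in siKMT2C and 10.9 ± 3.93 FPKM in siNC. PMAIP1 and BAD could not be ranked against each other, and in siNC both ranges also overlapped that of BAX.

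The remaining BH3-only genes were rare transcripts. BID averaged 2.42 ± 0.0966 FPKM in siKMT2C and 2.08 ± 0.202 FPKM in siNC, and BBC3 averaged 1.40 ± 0.412 FPKM in siKMT2C and 0.986 ± 0.321 FPKM in siNC. BCL2L11 averaged 0.589 ± 0.155 FPKM in siKMT2C and 0.462 ± 0.271 FPKM in siNC. BMF averaged 0.0551 ± 0.00808 FPKM in siKMT2C and 0.411 ± 0.0608 FPKM in siNC. In siNC the ranges of BMF and BCL2L11 overlapped, as did those of BCL2L11 and BBC3, whereas in siKMT2C BMF stood alone at the bottom.

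The length behind the deposited FPKM counted overlapping exons of different transcripts more than once, by a median factor of 1.53 over genes and 1.75 to 2.55 in the members. On merged exons of GENCODE 29, BMF had 0.122 ± 0.0184 CPM per kilobase in siKMT2C and 0.891 ± 0.128 CPM per kilobase in siNC. The order of the 10 genes was the same on this scale in siNC, and in siKMT2C BAD and PMAIP1 changed places.

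**Figure D3:**
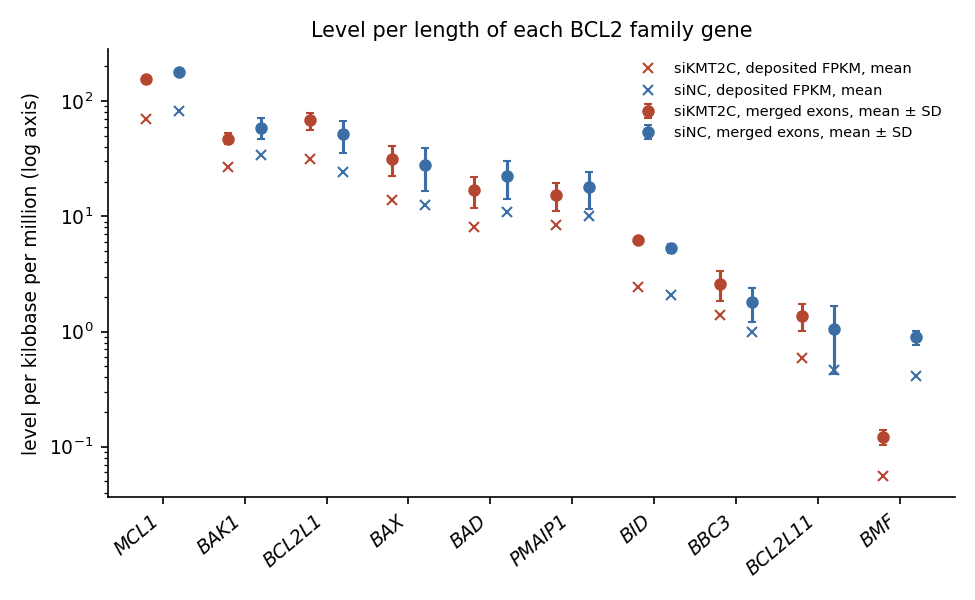
Level per kilobase, scaled to depth (log axis), of the 10 genes, siKMT2C in red to the left of siNC in blue, as mean ± SD on merged exons (points) and as mean deposited FPKM (crosses). MCL1 is the highest on both scales, BMF has the lowest mean, though in siNC its FPKM range overlaps that of BCL2L11, and the exon model shifts levels without changing the order in siNC.

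Set against its relatives, BMF gave a small part of the BH3-only transcripts even in siNC. It made up 0.196%, 0.305% and 0.298% of the summed FPKM of the 6 BH3-only genes in siKMT2C, against 1.70%, 1.32% and 1.99% in siNC. That sum was 23.5, 19.0 and 20.6 FPKM in siKMT2C, against 23.1, 27.4 and 24.0 FPKM in siNC, and the groups overlapped through siKMT2C replicate 1. The ratio of BMF to BCL2L11 FPKM was 0.110, 0.0927 and 0.0850 in siKMT2C, against 1.15, 0.467 and 1.76 in siNC. The siNC ratios lay on both sides of 1, and BMF was well under BCL2L11 in every siKMT2C library.

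The other balances overlapped between the groups. BH3-only FPKM amounted to 23.3%, 19.6% and 19.0% of the summed FPKM of BCL2L1 and MCL1 in siKMT2C, against 22.7%, 25.5% and 21.7% in siNC. BAX and BAK1 together gave 37.5, 35.7 and 48.6 FPKM in siKMT2C, against 38.0, 40.8 and 60.7 FPKM in siNC. The ratio of MCL1 to BCL2L1 was 2.16, 2.74 and 1.93 in siKMT2C, against 4.49, 4.03 and 2.34 in siNC, where the third replicate alone fell inside the siKMT2C range. These ratios compare transcripts and say nothing of the proteins, many of which are set by phosphorylation or turnover.

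In several members replicate 3 stood apart in the same direction in both groups. On the log2 CPM scale, replicate 3 differed from the mean of replicates 1 and 2 by 0.66 in siKMT2C and 0.95 in siNC for BAX. The same difference was 0.36 in siKMT2C and 0.73 in siNC for BCL2L1, and −0.74 in siKMT2C and −0.93 in siNC for PMAIP1. BMF moved little, by 0.20 in siKMT2C and 0.33 in siNC. BCL2L11 was the member in which replicate 3 went far in opposite directions, 0.48 in siKMT2C and −0.90 in siNC. Replicate 3 was highest or lowest in both groups in 7 of 10 members, beside 52.47% of all genes tested.

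**Figure D4:**
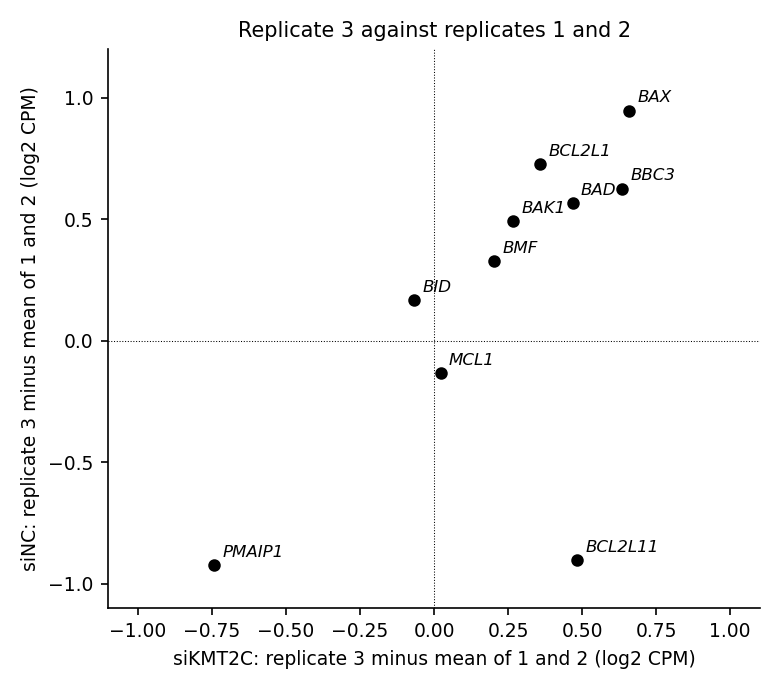
For each gene, replicate 3 minus the mean of replicates 1 and 2 on the log2 CPM scale, in siKMT2C (horizontal) and in siNC (vertical). BAX at 0.66 and 0.95 and PMAIP1 at −0.74 and −0.93 lie along the diagonal, while BCL2L11 at 0.48 and −0.90 lies off it.

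Several members share exon bases with a neighbouring gene, and the sources used here do not give whether counting used strand. BMF-AS1, antisense to BMF over 461 of its 5447 exon bases, had 0 counts in all 6 libraries. ABALON, antisense to BCL2L1 over 1424 of 3314 exon bases, had 275, 222 and 314 counts in siKMT2C, against 219, 178 and 214 counts in siNC, and the groups did not overlap (log2 fold change 0.45, SE 0.17, not called by edgeR). Without strand, reads of BCL2L1 and ABALON cannot be told apart there. GPR137 overlaps BAD on the opposite strand over 404 of 1708 exon bases, and its log2 fold change was −0.53 (SE 0.25, not called by edgeR). MIR4435-2HG shares 727 of the 6658 exon bases of BCL2L11 on the opposite strand, and its log2 fold change was 0.26 (SE 0.39, not called by edgeR).

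The 5 tested genes with profiles most like BMF were taken over the 6 libraries by the root-mean-square difference of mean-centred log2 CPM, among 11560 genes with a mean log2 CPM of at least 1. They were MAF at 0.275, CPA4 at 0.342, IL24 at 0.348, SNRNP25 at 0.374 and SCNN1A at 0.376. MAF, a transcription factor gene, had 1.35, 2.38 and 1.29 CPM in siKMT2C, against 11.8, 11.8 and 13.5 CPM in siNC. All 5 were lower in siKMT2C, which the likeness to BMF itself brings with it.

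Outside the 10 genes, 6 lists of apoptosis genes held 83 genes, of which 76 were tested and 3 were called, beside 1.50% of all genes. Beside the numbers of list genes at an unadjusted p under 0.05 given here, 2548 of the 15063 genes tested (16.9%) were under it. Of the called genes, 2 were higher and belong to the apoptosome and caspase list. In that list edgeR called 2 of 16 genes higher and none lower, and the median log2 fold change was 0.01. CYCS, which encodes cytochrome c, rose to 328.3, 340.0 and 323.9 CPM in siKMT2C, against 177.9, 161.5 and 157.5 CPM in siNC (log2 fold change 1.00, SE 0.11, edgeR adjusted p = 0.0118). Its groups did not overlap, and CYCS has processed pseudogenes with which it can share reads. CASP9, the initiator caspase that the apoptosome activates and a gene chosen here after its values were seen, had 5.44, 4.05 and 6.82 CPM in siKMT2C, against 10.5, 9.07 and 13.3 CPM in siNC, and was not called by edgeR (adjusted p = 0.0926). It was called by DESeq2, with the replicate block, and with the GC and length correction, alone or with the block. In this list 4 genes were at an unadjusted p under 0.05, and limma-voom called 2 and DESeq2 3.

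The call of CYCS depended on single libraries. Its edgeR adjusted p was 0.0953, 0.0637 and 0.0524 when siKMT2C replicates 1, 2 and 3 were left out in turn, and 0.0841 when siNC replicate 2 was. With libraries left out, its log2 fold change stayed between 0.95 and 1.05.

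Of 13 tested transcription factors that act on BH3-only genes, edgeR called 1 lower and none higher, and the median log2 fold change was −0.18. In this list 6 genes were at an unadjusted p under 0.05, and limma-voom called 1 and DESeq2 5. The 4 that DESeq2 called beside FOXO3, named here after their values were seen, were TP63 with a log2 fold change of −0.69 (SE 0.20), SMAD3 with −0.50 (SE 0.12), DDIT3 with 0.70 (SE 0.20) and MYC with 1.76 (SE 0.49) in the edgeR fit. Their groups did not overlap. MYC had 15.8, 20.9 and 62.9 CPM in siKMT2C, against 9.27, 11.5 and 8.67 CPM in siNC, so its fold change leaned on siKMT2C replicate 3. FOXO3, a forkhead factor that can activate BCL2L11 and BBC3, fell to 97.4, 84.7 and 93.4 CPM in siKMT2C, against 147.9, 143.7 and 143.5 CPM in siNC (log2 fold change −0.66, SE 0.12, edgeR adjusted p = 0.0411). The groups did not overlap, although its near copy FOXO3B may take some of its reads. The call was lost without any one of siKMT2C replicates 1, 2 and 3 and siNC replicates 1 and 2, at an edgeR adjusted p of 0.191, 0.187, 0.121, 0.0993 and 0.176 in that order. TP73 was not tested, with 51 counts in the 6 libraries.

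The other BCL2 family list had no call by edgeR among 9 tested of 13, with 1 gene at an unadjusted p under 0.05, 1 call by DESeq2 and 0 by limma-voom, and a median log2 fold change of 0.12. The gene behind both was BNIP3L, a mitophagy receptor, with 72.5, 70.9 and 68.6 CPM in siKMT2C, against 119.5, 120.4 and 89.4 CPM in siNC (log2 fold change −0.64, SE 0.15, edgeR adjusted p = 0.0851; 0.0136 without siNC replicate 3). BNIP3, its relative, had a log2 fold change of −0.36 (SE 0.17) and BCL2L13 one of 0.24 (SE 0.12), neither called by edgeR. BCL2A1 and HRK, with 2 counts each in the 6 libraries, BCL2L14 with 5 and BCL2L15 with 7 were too rare to test.

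Inhibitors of apoptosis, which bind caspases or act at the TNF receptor, had no call by edgeR among 6 tested of 7, with 0 genes at an unadjusted p under 0.05, 0 calls by DESeq2 and 0 by limma-voom. Their median log2 fold change was −0.12, and BIRC3, whose protein is a ubiquitin ligase at the TNF receptor, had −0.56 (SE 0.25; edgeR adjusted p = 0.0151 without siNC replicate 3, 0.316 with it), BIRC5, encoding survivin, 0.41 (SE 0.20) and NAIP −0.25 (SE 0.29). BIRC3 was also called with the GC and length correction, alone or with the block. XIAP, chosen here after its values were seen, had 13.3, 13.6 and 76.6 CPM in siKMT2C, against 8.47, 18.4 and 82.8 CPM in siNC. Replicate 3 was several times above the others in both groups, which left the log2 fold change at −0.09 with an SE of 0.93.

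Death receptor genes, which feed BID through caspase-8, had no call by edgeR among 15 tested of 16, with 3 genes at an unadjusted p under 0.05, 0 calls by DESeq2 and 0 by limma-voom, and a median log2 fold change of −0.01. RIPK1, a kinase of the TNF receptor complex, had −0.42 (SE 0.12). CFLAR, which encodes the caspase-8 inhibitor FLIP, had 0.43 (SE 0.15) and TNFSF10, encoding the ligand TRAIL, had −0.65 (SE 0.28). RIPK1 was called with the GC and length correction without the block (edgeR adjusted p = 0.042), and under no other alternative. Genes that act on the proteins of the family had no call by edgeR among 17 tested of 17, with 2 at an unadjusted p under 0.05, 0 calls by DESeq2 and 0 by limma-voom, and a median log2 fold change of −0.05. AKT1, a kinase that phosphorylates BAD, had a log2 fold change of 0.73 (SE 0.27; 0.48 to 0.99 with libraries left out), and its groups overlapped. With the GC and length correction and no block, 2 genes of this list were called, AKT1 among them (edgeR adjusted p = 0.0486). HUWE1, a ubiquitin ligase for MCL1, had a log2 fold change of −0.19 (SE 0.12). The dynein light chain genes lay near 0, DYNLL1 at −0.09 (SE 0.17) and DYNLL2 at 0.14 (SE 0.18), and were named here after their values were seen.

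**Figure D5:**
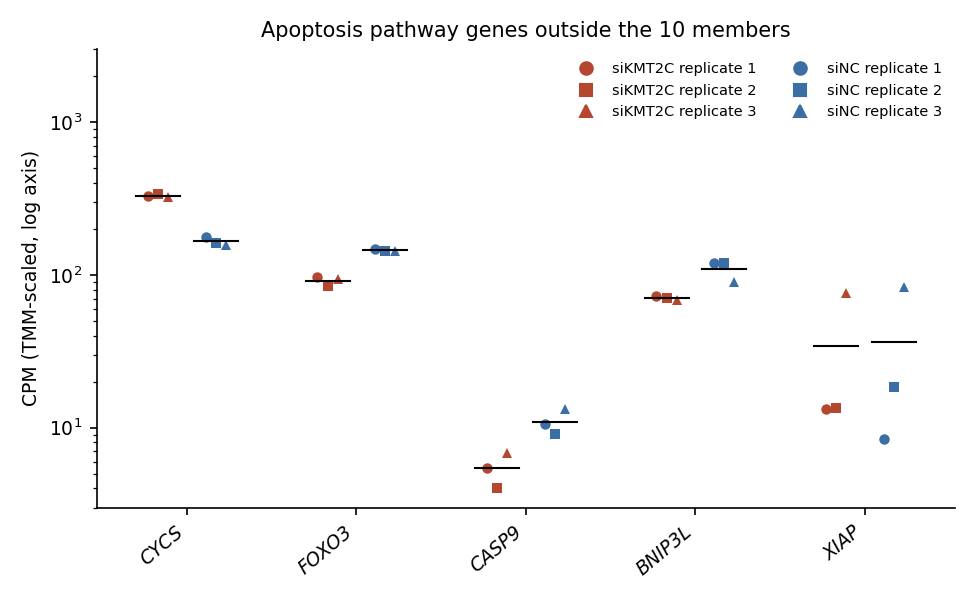
CPM (log axis) of 5 pathway genes outside the BCL2 family members, siKMT2C in red to the left of siNC in blue, with marker shape for the replicate number and a black line for the group mean. CYCS is higher and FOXO3 lower in siKMT2C in every library, while XIAP separates replicate 3 from the others in both groups.

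Markers of other cell types were low. The fibroblast list, 3 of 5 tested with a median log2 fold change of −0.77, summed to 12.7 to 16.5 CPM in siKMT2C and 20.3 to 30.2 CPM in siNC, ranges that did not overlap, and its part in the values of BMF, CYCS and FOXO3 was not tested. Melanocyte markers summed to 2.03 to 2.75 CPM in siKMT2C and 1.802 to 2.75 CPM in siNC, with TYR and DCT at 0 counts. Leukocyte markers summed to 12.9 to 14.6 CPM in siKMT2C and 8.87 to 13.8 CPM in siNC, with PTPRC and CD3E at 0 counts. ITGAM had 18 counts in the 6 libraries, so nearly all of that sum came from CD68. Endothelial markers reached 0.0614 CPM in siKMT2C and 0.0692 CPM in siNC, with PECAM1 and CDH5 at 0 counts.

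A pair of 7-base words, chosen with earlier results of these data in view, was looked for on the transcript strand. Any tie of these words to the fold changes is not shown here. TCGGAGA occurred in 9.497% of 12435 tested protein-coding genes, searched in coding sequence and 3′ UTR, and GTATAAA in 14.91%, searched in 3′ UTR alone. Among the members, BCL2L1 held TCGGAGA in 1 place, no other member held it, and none held GTATAAA. CYCS and FOXO3 each held GTATAAA in 1 place, BNIP3L held it in 2, and AKT1 held TCGGAGA in 2. BNIP3, BCL2L13, BIRC3, BIRC5, NAIP, RIPK1, CFLAR, TNFSF10 and HUWE1 held neither word. The part of these words in the values was not tested.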

How the data were processed

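Per the file headers, the deposited table held raw read counts and FPKM values of each gene in the 6 libraries. CASAVA 1.8 and TopHat2 2.0.6 were used by the authors, per the submitters' processing notes, which also list mm10, a mouse build that was not used here because the identifiers are human Ensembl ones. For the counting program, its annotation and its use of strand, nothing was given in the sources used here. GENCODE 29 (GRCh38) held 58039 of 58302 identifiers (99.55%), and gave symbols, coordinates and coding sequences. In 11732 of 12757 genes with at least 20 counts in every library, the length implied by counts and deposited FPKM lay within 1 base of the summed distinct exons.

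Counts were tested with edgeR 4.0.16 in R 4.3.3 (filterByExpr, TMM scaling, robust quasi-likelihood F test), with p-values adjusted by the Benjamini-Hochberg method over the 15063 genes tested and a gene called under 0.05. Standard errors were taken as the absolute log2 fold change over the square root of F. The step was tested on simulated data. There it called 4 of 67 genes changed 1.5-fold (5.97%), 28 of 67 changed 2-fold (41.79%) and 63 of 66 changed 4-fold (95.45%). A gene not called here may therefore still differ, also by 2-fold or more. MYC, for example, was not called by edgeR at a log2 fold change of 1.76. The labels do not say that replicates came from separate cultures, so p-values measure only the spread between these libraries, which may be technical. CPM used TMM-scaled library sizes.

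The members and gene lists were chosen with earlier results of these data known. The text names all 10 members, every called gene of a pathway list or else its 3 genes of smallest p, the 5 genes with profiles most like BMF, genes overlapping a member, and KMT2C, except that some genes this rule takes are left out here. Alternatives were RLE or unscaled library size, DESeq2 1.42.0, limma-voom (limma 3.58.1), a filter of CPM at or above 1 in 3 libraries or none at all, a replicate block, a loess correction for GC content and length (span 0.3, for 99.73% of tested genes) alone or with the block, and leaving out each library. Leaving out both replicate 3 libraries and levels on merged exons were chosen after seeing the data. Tables and figures used Python 3.11.15, pandas 2.3.3, numpy 2.4.6 and matplotlib 3.10.9.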

Additional observations from a re-analysis of the deposited data

How the results depend on the processing

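The log2 fold change of BMF, whose fall chose it, lay between −2.94 and −2.74 over 16 alternatives. The log2 fold change changed sign in 1 of 16 alternatives for BCL2L11, in 1 for PMAIP1 and in 2 for BAX, and in none for the other 7 members. BMF was the only member called in 15 of the 16 alternatives. With the GC and length correction and the replicate block together, 2 were called, BMF and BCL2L1. Since the contrast chose the members, nothing is read from these calls. The number of genes called, 226, was 864 with DESeq2, 968 with the replicate block, 1524 with the GC and length correction and 1431 with that correction and the replicate block. It ran from 16 to 648 when libraries were left out, with 20, 19 and 34 without siKMT2C replicates 1, 2 and 3, 52, 16 and 620 without siNC replicates 1, 2 and 3, and 648 without both replicate 3 libraries. The number of pathway genes called, 3, was 9 with DESeq2, 7 with the replicate block, 12 with the GC and length correction and 12 with that correction and the replicate block, and 0 to 7 when libraries were left out. KMT2C kept a log2 fold change of −1.51 to −1.37 when libraries were left out, and lost its call without siKMT2C replicate 1 (edgeR adjusted p = 0.0634), siKMT2C replicate 2 (edgeR adjusted p = 0.0507) or siNC replicate 2 (edgeR adjusted p = 0.0593). The cause of these shifts was not tested. The labels do not say that replicate numbers pair cultures; deviations of same-numbered libraries correlated at 0.0195, 0.107 and 0.389 for replicates 1, 2 and 3, and siKMT2C replicates 1 and 2 correlated best with another number. With 3 libraries a group and 9 to 12 counts of BMF in siKMT2C, counting error limits the precision of its fold change. The 10 members stayed in the same order by length-scaled level in siNC under both exon models.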
